A study of Mus musculus with 14 samples.

Results

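The genes of the heavy chains of MHC class I molecules and of their light chain were followed in macrophages of the inflamed central nervous system. The 9 genes were H2-Q4, H2-Q6, H2-Q7, H2-D1, H2-K1, H2-T22, H2-T23, H2-M3 and B2m, taken by gene symbol from the 19940 genes of the deposited table. All 9 passed the filter on low values (a normalised count of at least 10 in at least 7 libraries). The set was chosen by gene family, with the difference in normalised counts between mCAT and wt in these same libraries, above all that of H2-Q7 and H2-Q6, already known. Their genotype differences are therefore given as a description, and nothing is read from how many of the 9 a test over all genes called.

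A class I molecule is a heavy chain bound to beta-2 microglobulin, the light chain that B2m encodes. The classical heavy chains, H-2K and H-2D, show peptides cut by the proteasome to CD8+ T cells. The non-classical chains of the Q, T and M regions vary less and have narrower roles. H2-Q6 and H2-Q7 belong to the Qa-2 genes, whose product is largely held in the membrane by a lipid anchor, and H2-T23 encodes Qa-1, which is read by receptors of NK cells and T cells. Class I genes respond to interferons and NF-kappaB, and inflamed macrophages are known to carry much class I on their surface.

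The samples were bulk RNA of macrophages derived from monocytes, sorted from the central nervous system of mixed bone marrow chimeras when experimental autoimmune encephalomyelitis (EAE) was at its peak. EAE is an induced inflammation of the brain and spinal cord used to model multiple sclerosis in mice. Lethally irradiated hosts had received equal numbers of marrow cells of both donors, and tamoxifen is listed as the treatment of all 14 libraries. The 7 mCAT libraries came from CD45.2 donor cells of the genotype CCR2creERT2/+ mcat lsl/wt, in which a tamoxifen-inducible Cre at Ccr2 releases a catalase aimed at mitochondria. The 7 wt libraries came from CD45.1 donor cells, for which the labels name no Cre or catalase allele. The CD45 allele therefore differed with the genotype in every library. The sources used here do not give the donors' age, sex, strain or H2 haplotype, nor the genotype of the hosts.

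Values are normalised counts, obtained by undoing the log2-scale transformation of the deposited table. The mCAT libraries held an estimated 27.9 to 47.1 M reads (M for mega), and the wt libraries 16.7 to 42.7 M, with wt 7 the shallowest. Catalase (Cat) counts averaged 2831 ± 808 in mCAT and 2155 ± 626 in wt libraries (SD, n = 7 each) and overlapped between the genotypes. Within the 6 pairs of libraries that share a code stem, Cat was higher in mCAT in 6, by 1.05-fold to 1.51-fold. It was called by limma neither with pairing nor without. Of 10 macrophage and monocyte markers all were measured, with a summed level of 1027549 to 3733407 in mCAT and 1172247 to 4674044 in wt libraries, most of it from Lyz2. Without pairing, 3 of these 10 markers had an unadjusted p under 0.05 between the genotypes (limma), against 5.37% of all genes. Of the 10, 0 were called, where 0.198% of all genes were. With pairing, 6 of the 10 had an unadjusted p under 0.05, against 9.24% of all genes. The 1 marker called with pairing, where 0.314% of all genes were, was Ccr2, the gene that carries the Cre in mCAT cells. Ccr2 counts were 8391 ± 2975 in mCAT and 13742 ± 5015 in wt libraries. All 6 pairs held the smaller Ccr2 count in the mCAT partner (limma adjusted p = 0.00563 with pairing and 0.878 without). The part of these markers in the class I values was not tested. The 7 T cell markers in the table summed to 85.2 to 307 in mCAT and 260 to 842 in wt libraries. The 5 NK cell markers summed to 0 to 80.7 in mCAT and 24.8 to 181 in wt libraries, with Ncr1, Klra8 and Eomes at mean counts under 10 and Klrb1c highest at 31.9. On the first principal component (34.5% of the variance) mCAT 6, mCAT 7, wt 6 and wt 7 lay at one end, at scores of -35.8 to -23.7, and wt 1 at the other, at 46.0. Their library codes place mCAT 6 with wt 6 and mCAT 7 with wt 7 in the pairs with the code stems C2_2 and C2_4. Nothing in the labels says that libraries came from separate hosts, so the spread between libraries may be partly technical. In bulk samples, less RNA per cell and fewer cells of a type cannot be told apart.

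The heavy chain genes are close copies, and how well reads tell them apart decides how firmly each count can be read. Over 973 aligned coding bases of the longest GENCODE M21 transcripts, H2-Q7 and H2-Q6 differed at 41, an identity of 95.8%. The stretch of 90 coding bases with the most differences lay in exon 3, which encodes part of the peptide-binding platform in class I genes, and held 9 of them. It is shown, 5′ to 3′ from coding base 467 to 556, because reads over it can be told apart. Capitals mark the bases that differ between the genes.
H2-Q7 exon 3: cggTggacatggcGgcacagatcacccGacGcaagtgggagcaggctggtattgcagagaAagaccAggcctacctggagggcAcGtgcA
H2-Q6 exon 3: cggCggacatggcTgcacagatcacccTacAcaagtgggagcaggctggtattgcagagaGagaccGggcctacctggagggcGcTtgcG
Of all 150-base words in the transcripts of a gene, which is the length of 1 read, 8.31% of H2-Q7 and 5.99% of H2-Q6 also occurred in a transcript of another gene. H2-Q6 and H2-Q7 shared 116 such words with each other. For 31-base words, the shared part was 62.1% for H2-T22, 58.4% for H2-Q4, 51.8% for H2-Q6, 49.0% for H2-T23, 48.1% for H2-Q7, 27.9% for H2-D1, 20.3% for H2-K1, 4.62% for H2-M3 and 0 for B2m. Of the H2-T22 words 55.0% were shared with H2-T10, and of the H2-Q7 words 29.1% with H2-Q5. H2-Q6 and H2-Q7 shared 379 of these 31-base words, 23.5% of those of H2-Q7 and 18.4% of those of H2-Q6. Of the H2-Q6 words 24.6% were shared with H2-Q4. Counts of H2-Q4, H2-Q6, H2-Q7, H2-T22 and H2-T23 are thus less certain than those of H2-M3 and B2m. The words were taken from GRCm38 transcripts, whereas the submitters' processing notes name GRCm39.

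The promoters of H2-Q7 and H2-Q6, whose counts differed between the genotypes, are shown beside that of their neighbour H2-Q4, whose counts did not separate. The sequences are those of RefSeq on GRCm38.p6, from 250 bases before the start site to 50 after it, all on the plus strand: chr17:35438905-35439204 for H2-Q7, chr17:35424600-35424899 for H2-Q6 and chr17:35379367-35379666 for H2-Q4. Capitals mark exact matches, on either strand, of the NF-kappaB consensus, an interferon response motif (TTTCNCTTC), the core of a cAMP response element (TGACG) and the CCAAT box (CCAAT).
H2-Q7 promoter: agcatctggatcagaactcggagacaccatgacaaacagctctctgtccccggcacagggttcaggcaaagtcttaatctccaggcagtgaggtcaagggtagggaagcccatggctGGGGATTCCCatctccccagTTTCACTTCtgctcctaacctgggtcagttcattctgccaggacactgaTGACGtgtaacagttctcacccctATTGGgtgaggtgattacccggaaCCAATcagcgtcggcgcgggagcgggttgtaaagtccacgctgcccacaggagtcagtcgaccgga
H2-Q6 promoter: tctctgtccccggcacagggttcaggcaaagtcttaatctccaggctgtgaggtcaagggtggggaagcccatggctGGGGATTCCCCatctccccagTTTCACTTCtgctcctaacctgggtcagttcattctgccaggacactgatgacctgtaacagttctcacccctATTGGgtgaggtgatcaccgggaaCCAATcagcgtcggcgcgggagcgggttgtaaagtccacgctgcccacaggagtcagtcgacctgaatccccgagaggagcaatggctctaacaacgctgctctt
H2-Q4 promoter: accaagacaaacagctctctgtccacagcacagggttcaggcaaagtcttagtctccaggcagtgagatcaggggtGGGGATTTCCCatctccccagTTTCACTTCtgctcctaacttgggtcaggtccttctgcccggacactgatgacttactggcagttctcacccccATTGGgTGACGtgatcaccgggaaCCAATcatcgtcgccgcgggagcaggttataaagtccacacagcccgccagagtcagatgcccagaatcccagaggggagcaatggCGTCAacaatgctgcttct
H2-Q7 and H2-Q6 were identical at 97.7% of 260 aligned promoter bases, against 88.6% of 280 for H2-Q4 and H2-Q6. The NF-kappaB consensus first matched at -133 in H2-Q7, -173 in H2-Q6 and -174 in H2-Q4, counted from the start site, with matches on both strands that overlap each other. It was found in 8 of the 9 genes, H2-T23 being the exception, and in 4.51% of the 32851 promoters of the table. The interferon response motif began at -113 in H2-Q7, -152 in H2-Q6 and -153 in H2-Q4, was also found in H2-D1, H2-K1 and H2-M3 (6 of 9 genes in all), and occurred in 2.44% of all promoters. TGACG was found in H2-Q7 and H2-Q4 but not in H2-Q6 (7 of 9 genes and 20.8% of all promoters), and the CCAAT box in all 9 genes (37.4%). Matches of different motifs did not overlap in the 3 promoters shown. A match describes the letters of this window and is no evidence of binding.

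Class I genes were among the most abundant transcripts of these cells. By mean normalised count B2m ranked 8, H2-D1 10 and H2-K1 16 of all genes, followed by H2-T23 at 135, H2-Q7 at 306, H2-Q6 at 438, H2-T22 at 505 and H2-M3 at 984. H2-Q4 ranked only 7209. To compare genes, counts were divided by the length of the longest protein-coding transcript and are given per kilobase. B2m stood at 507862 ± 43482 per kilobase in mCAT and 487411 ± 148296 in wt libraries. H2-D1 followed with 174189.8 ± 11476 in mCAT and 165321 ± 27862 in wt, and H2-K1 with 142879 ± 6785 in mCAT and 140288 ± 14706 in wt (SD, n = 7 each). H2-D1 exceeded H2-K1 in 7 of 7 mCAT and 6 of 7 wt libraries. The Qa-1 gene H2-T23 came next, at 24468 ± 4602 per kilobase in mCAT and 23844 ± 5518 in wt, above H2-Q7 in 7 of 7 libraries of either genotype.

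In the lower part of that order, the place of H2-Q6 was not the same in the genotypes. In mCAT libraries H2-Q7 (15379 ± 2473 per kilobase) stood above H2-Q6 (7781 ± 1953), H2-T22 (5710 ± 504) and H2-M3 (3918 ± 270). Each was above the next in 7 of 7 libraries, although the ranges of H2-Q6 and H2-T22 overlapped across libraries. In wt libraries H2-Q7 (7672 ± 1930) was above H2-T22 (6608 ± 1469) in 7 of 7 libraries. H2-T22 was above H2-M3 (4115 ± 491) in 7 of 7 as well, although in both cases the ranges overlapped across libraries. H2-M3 and H2-Q6 (4111 ± 1049) were level, with H2-M3 higher in 3 of 7 libraries. H2-Q4 was last in both, at 187 ± 36.1 per kilobase in mCAT and 189 ± 28.6 in wt.

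H2-Q7 and H2-Q6 were the members whose libraries did not overlap between the genotypes. H2-Q7 counts were 17577, 24893 and 27016 in mCAT libraries (lowest, median, highest), against 7117, 11236 and 16225 in wt libraries. Every mCAT library lay above every wt library; the lowest mCAT values were those of mCAT 6 and mCAT 7, and the highest wt value was that of wt 1. The means were 23422 ± 3766 in mCAT and 11684.5 ± 2939 in wt, a 2.00-fold level in mCAT and a log2 difference of 1.02 (SE 0.17).

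H2-Q6 counts were 10732, 15824 and 23157 in mCAT libraries, against 4723, 10032 and 10529 in wt libraries. The groups again did not overlap, but the gap was narrow, since mCAT 6 at 10732 lay just above wt 1 at 10529. The means were 16224 ± 4072 in mCAT and 8571 ± 2187 in wt, a 1.89-fold level and a log2 difference of 0.92 (SE 0.19). Over all 12096 genes tested, 0.124% had every mCAT library above every wt library and 0.24% did not overlap in either direction.

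**Figure D1:**
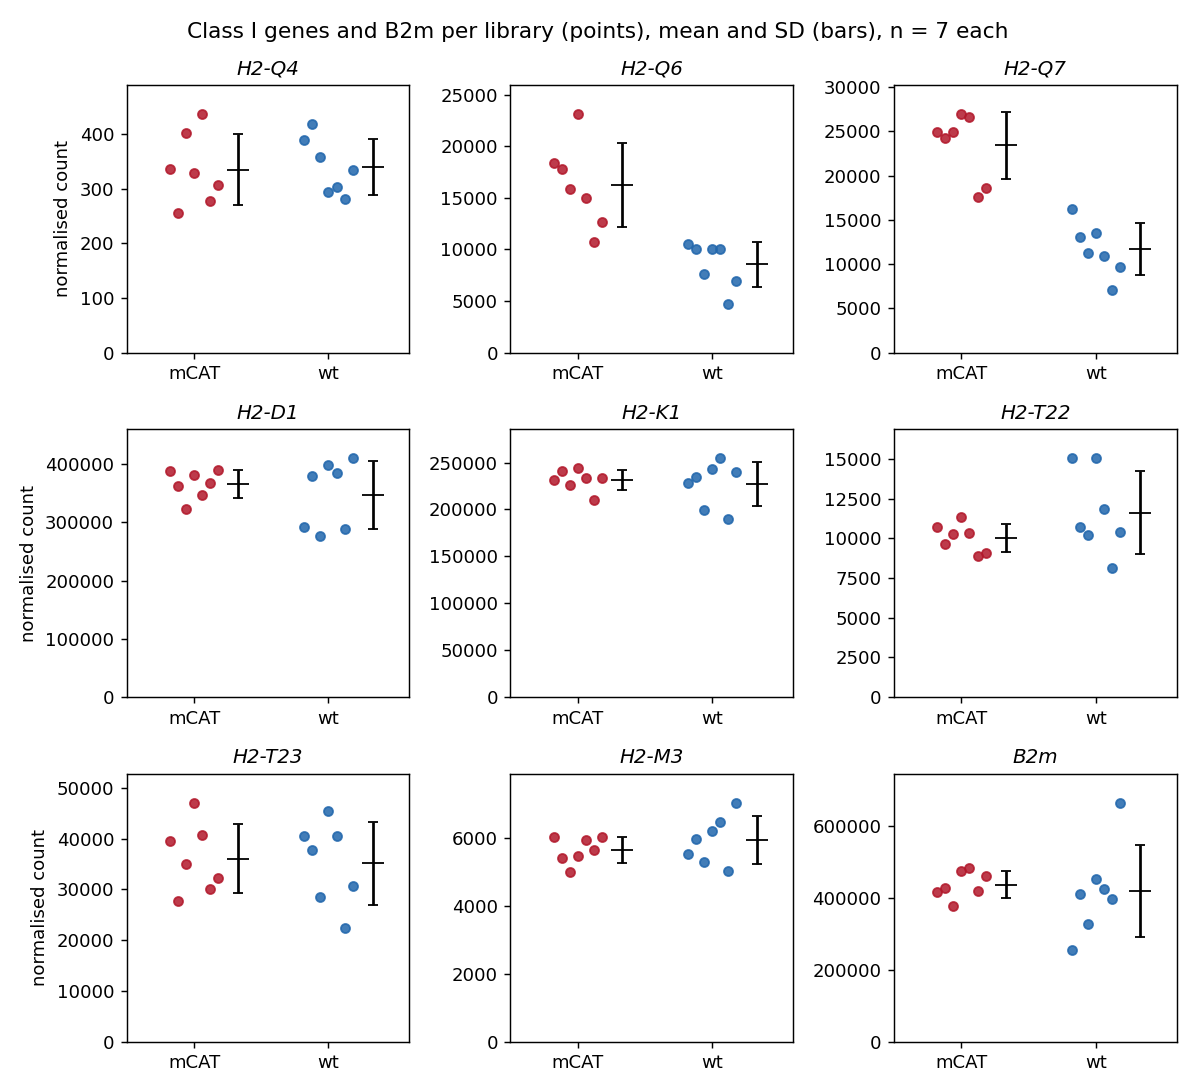
Normalised counts (y axis, from 0, a scale of its own for each gene) of the 9 genes in each mCAT (left) and wt (right) library; points are libraries and bars the mean and SD, n = 7 each. H2-Q7 and H2-Q6 are the panels without overlap, and the wt values of B2m reach from 254008 to 664972.

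Within the 6 pairs of libraries that share a code stem, H2-Q7 was higher in the mCAT partner in 6, by 1.90-fold to 2.47-fold with a median of 2.08-fold. H2-Q6 was also higher in 6, by 1.49-fold to 2.34-fold with a median of 2.05-fold. The smallest H2-Q6 ratio was in stem C2_1, where H2-Q7 had a ratio of 2.44. In that stem the ratio of H2-Q7 to H2-Q6 counts was 1.08 in wt 5 and 1.78 in mCAT 5, the lowest and highest of the 14 libraries. How reads were divided between the genes there was not tested. The paired log2 difference was 1.09 (SE 0.08) for H2-Q7 and 0.98 (SE 0.10) for H2-Q6. With limma over all genes and Benjamini-Hochberg adjustment, 1 of the 9 members was called without pairing, H2-Q7, where 0.198% of all genes were called. With pairing 2 of 9 were called, H2-Q7 and H2-Q6, where 0.314% of all genes were. These counts describe members picked with the contrast known and support nothing.

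**Figure D2:**
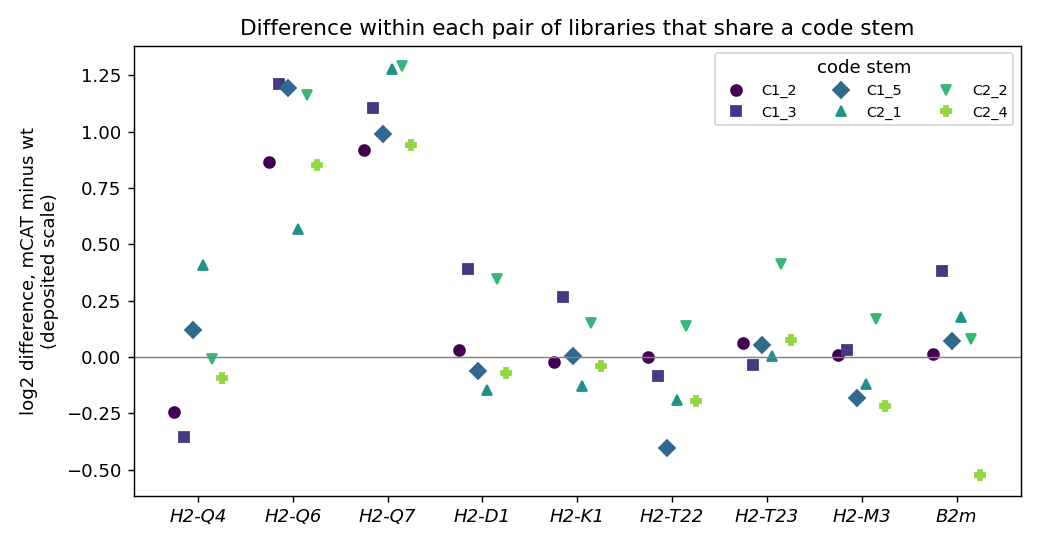
Log2 difference, mCAT minus wt, on the deposited scale (y axis) of each gene (x axis) within the 6 pairs of libraries that share a code stem (symbols); the line marks no difference. H2-Q7 lies between 0.92 and 1.29 and H2-Q6 between 0.57 and 1.21, while every other gene has pairs on both sides of 0 or at it.

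The remaining Q-region member, H2-Q4, showed no such separation. This non-classical gene had 256, 328 and 437 normalised counts in mCAT libraries (lowest, median, highest), against 281, 335 and 418 in wt libraries. The ranges overlapped nearly in full, the log2 difference was -0.02 (SE 0.12), and H2-Q4 was higher in the mCAT partner in 2 of 6 pairs. The ratio of summed H2-Q6 and H2-Q7 counts to H2-Q4 was 121 ± 28.1 in mCAT and 59.7 ± 13.3 in wt libraries, and higher in the mCAT partner in 6 of 6 pairs.

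The classical heavy chains and the light chain were level between the genotypes. H2-D1, which presents peptides to CD8+ T cells, had 323632, 368068 and 390729 counts in mCAT libraries, against 276357, 379651 and 410579 in wt libraries. H2-K1, the other classical gene of the set, had 210473, 233153 and 244219 counts in mCAT, against 189348, 234359.7 and 254674 in wt. For both, the mCAT libraries lay inside the wider wt range. The log2 difference was 0.09 (SE 0.14) for H2-D1 and 0.03 (SE 0.12) for H2-K1, with each higher in mCAT in 3 of 6 pairs; after quantile normalisation the differences were -0.11 and -0.09. H2-K1 varied little at all: only 0.901% of the genes tested had a smaller spread within the genotypes.

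B2m counts were 377218, 427074 and 481821 in mCAT libraries, against 254008, 411990 and 664972 in wt libraries. The wt range enclosed the mCAT range, with wt 1 lowest and wt 7, the shallowest library, highest. The coefficient of variation was 8.56% in mCAT and 30.4% in wt, and the log2 difference 0.11 (SE 0.18), with the mCAT partner higher in 5 of 6 pairs. Without wt 1 the difference was -0.0023 and without wt 7 it was 0.23, so single wt libraries set its size.

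The T-region and M-region genes overlapped too. H2-T23, the gene of Qa-1, had 27782, 34994 and 47075 counts in mCAT libraries, against 22478, 37763 and 45367 in wt libraries (log2 difference 0.05, SE 0.17). H2-T22, whose product can be bound by some gamma-delta T cell receptors, had 8927, 10276 and 11364 in mCAT, against 8109, 10736 and 15065 in wt (log2 difference -0.18, SE 0.14). H2-M3, which presents peptides that begin with formyl-methionine, had 4981, 5648 and 6029 in mCAT, against 5012, 5958 and 7026 in wt (log2 difference -0.06, SE 0.10). H2-T22 was higher in the mCAT partner in 1 of 6 pairs, and its 2 highest counts were those of wt 4 and wt 1. H2-T23 was higher in mCAT in 5 of 6 pairs and H2-M3 in 3.

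Sums over related genes depend less than single genes on how reads were divided, although H2-Q7 and H2-Q6 also share 31-base words with H2-D1 (12.8% and 8.66% of theirs), which lies outside the H2-Q sum. All class I heavy chain rows were summed, taken as the symbols H2-K, H2-D, H2-L, H2-Q, H2-T or H2-M with a number. Together they held 693895 ± 35518 counts in mCAT and 653354 ± 88708 in wt libraries (SD, n = 7 each). This 1.06-fold level was higher in mCAT in 4 of 6 pairs and on the log2 scale turned to -0.05 after quantile normalisation. The H2-Q genes together (H2-Q4, H2-Q5, H2-Q6, H2-Q7 and H2-Q10) held 41531 ± 7801 in mCAT and 22436.5 ± 5401 in wt, a 1.85-fold level, higher in mCAT in 6 of 6 pairs. The lowest mCAT sum, 29688, lay just under the highest wt sum of 30199.6, so the groups touched. H2-Q6 and H2-Q7 made up 5.70% ± 0.941 of the heavy chain counts in mCAT and 3.11% ± 0.727 in wt. H2-K1 and H2-D1 made up 86.1% ± 1.69 in mCAT and 88.0% ± 1.92 in wt, lower in the mCAT partner in 6 of 6 pairs. The ratio of H2-Q7 to H2-Q6 was 1.48 ± 0.203 in mCAT and 1.38 ± 0.156 in wt, and that of B2m to the heavy chain sum 0.629 ± 0.0439 in mCAT and 0.639 ± 0.158 in wt; both overlapped.

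None of the other class I genes was called. By symbol (H2-K, H2-D, H2-L, H2-Q, H2-T or H2-M with a number) the table held 15 such genes, of which 6 passed the filter on low values. The highest count of the other 9 in any library was 32.0. H2-T-ps, whose symbol falls outside this rule, was tested and not called (log2 difference 0.28, limma adjusted p = 0.878). H2-Q5, which lies between H2-Q4 and H2-Q6, had 1478 ± 362 counts in mCAT and 1726 ± 577 in wt (log2 difference -0.18, SE 0.19, limma adjusted p = 0.899). H2-Q10, whose product is known as a class I molecule secreted by liver, had 72.3 ± 45.21 in mCAT and 116 ± 88.5 in wt (-0.28, SE 0.24, adjusted p = 0.890). H2-T10, the close copy of H2-T22, had 479.7 ± 125 in mCAT and 550.1 ± 178 in wt (-0.15, SE 0.16). H2-T24 had 2247 ± 351 in mCAT and 2142 ± 628 in wt (0.10, SE 0.17), and H2-T27 had 10.4 ± 9.15 in mCAT and 12.8 ± 9.39 in wt (-0.08, SE 0.14). H2-M2 varied most, with 436 ± 518 in mCAT and 905 ± 1415 in wt (-0.50, SE 0.62). With pairing, the smallest adjusted p of the 6 was 0.253. Without wt 1 the log2 difference was -0.12 for H2-Q10, -0.0614 for H2-Q5 and -0.0372 for H2-T10, and without wt 7 it was -0.0285 for H2-M2.

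From H2-K1 to H2-M3 along chromosome 17, in RefSeq gene order, 93 genes were tested. H2-Q6 and H2-Q7 were picked with their difference known, so their place among these genes is a description. Of the 85 genes that are no members 0 were called by limma without or with pairing, where 0.198% and 0.314% of all genes were. At an unadjusted p under 0.05 there were 4 and 11, where 5.37% and 9.24% of all genes were. The neighbours H2-Q4 and H2-Q5 on one side were described above; on the other side followed H2-Q10 and Tcf19, a cell cycle gene with 53.4 ± 18.6 counts in mCAT and 44.7 ± 24.4 in wt (log2 difference 0.13, SE 0.15). The non-member with the largest difference was the complement gene C2, at -0.75 (adjusted p = 0.878). Its difference, like those of Mdc1 (0.44) and Ltb (-0.43) after it, was smaller in size than that of H2-Q6; the 3 were named after their values were seen.

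**Figure D3:**
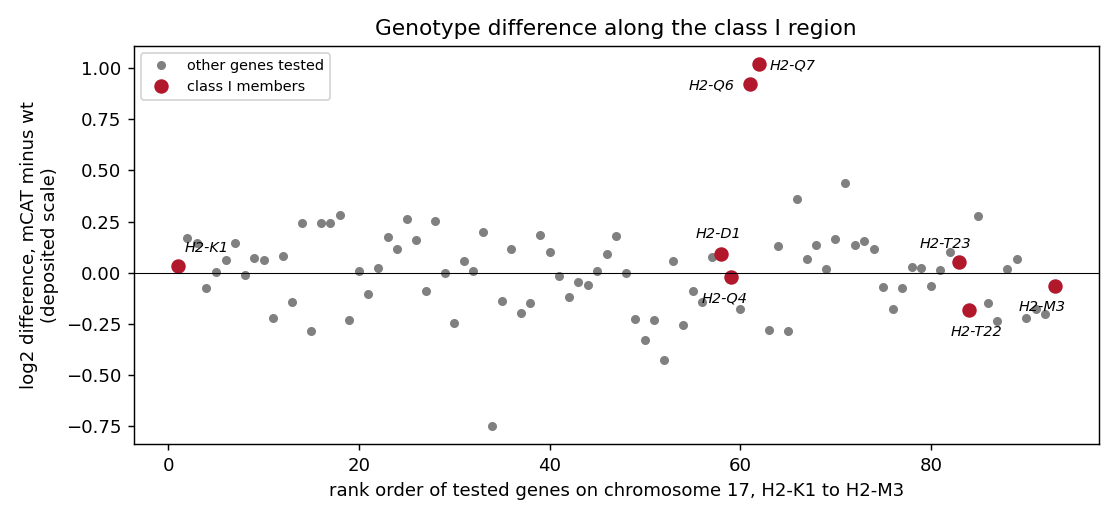
Log2 difference, mCAT minus wt, on the deposited scale (y axis) of the 93 genes tested from H2-K1 to H2-M3, by rank order along chromosome 17 (x axis, spacing not to scale); red points are class I members and grey points other genes. H2-Q6 (0.92) and H2-Q7 (1.02) lie side by side above the rest.

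Genes that make, load or read class I molecules showed no call. Of 67 genes on 5 lists, 63 were tested, and limma called 0 of 63 without pairing and 0 with it; at an unadjusted p under 0.05 there were 2 and 6, where 5.37% and 9.24% of all genes were. Of the 63, 34 had a difference above 0, with a median of 0.04, against 49.7% above 0 and a median of -0.0012 over all genes tested.

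Among 12 genes of peptide loading and trimming, 10 had a difference above 0 and the median was 0.15. The chaperone gene Calr had 17946 ± 1641 counts in mCAT and 15066 ± 3329 in wt, Canx, a lectin chaperone of new heavy chains, 15391 ± 2592 in mCAT and 12691 ± 3540 in wt, and Erap1, the aminopeptidase that trims peptides, 3631 ± 510.2 in mCAT and 2931 ± 902 in wt (adjusted p = 0.878 for each). The peptide pump gene Tap1 stood at 16601 ± 3935 in mCAT and 16420 ± 5989 in wt. Among 10 proteasome genes, 1 was above 0 and the median was -0.18. Psmb6, a catalytic subunit of the standard proteasome, had 9172 ± 1450 counts in mCAT and 10813 ± 1113 in wt, the assembly factor gene Pomp 6518 ± 1316 in mCAT and 7853 ± 1785 in wt, and the activator gene Psme2 18131 ± 5003 in mCAT and 23016 ± 7721 in wt (adjusted p = 0.878 for each).

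Among 19 regulators of class I transcription, 8 were above 0 and the median was -0.04. The NF-kappaB subunit gene Rela had 2844 ± 383 counts in mCAT and 2452 ± 373 in wt, and Nfkb1, another subunit gene, 1431 ± 399.8 in mCAT and 2283 ± 1603 in wt. Nfyb, a subunit of the factor that binds CCAAT boxes, had 688 ± 145 in mCAT and 593 ± 131 in wt. Nlrc5, the class I transactivator gene, had 2379 ± 1015 in mCAT and 3128 ± 2282 in wt (log2 difference -0.27, SE 0.30). Nlrc5 and Tap1 were named for their role, after their values were seen. Of 7 interferon receptor genes 6 were above 0, with a median of 0.10; Ifngr1, a chain of the interferon gamma receptor, had 13226 ± 2556 in mCAT and 10923 ± 2130 in wt, Ifngr2, its other chain, 7008 ± 870.3 in mCAT and 6281 ± 1368 in wt, and the kinase gene Jak1 5159 ± 1032 in mCAT and 4541 ± 906 in wt.

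Of 15 genes for class I receptors and class I-like molecules 9 were above 0, with a median of 0.06. The NKG2D ligand gene Ulbp1 had 146 ± 49.1 counts in mCAT and 95.8 ± 29.2 in wt, and the activating receptor gene Pira2 7120.2 ± 1720.1 in mCAT and 5615 ± 1307 in wt. Klrd1, which encodes the CD94 chain of the Qa-1 receptor, had 13.1 ± 7.52 in mCAT and 28.8 ± 21.5 in wt. Klrd1 is a gene of NK cells and T cells, and the 7 T cell markers of the table also had log2 differences below 0 (median -0.47). Of these markers 0 were called by limma without pairing, where 0.198% of all genes were. At an unadjusted p under 0.05 there were 5 of 7 markers, against 5.37% of all genes. Their part in any class I value was not tested.

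**Figure D4:**
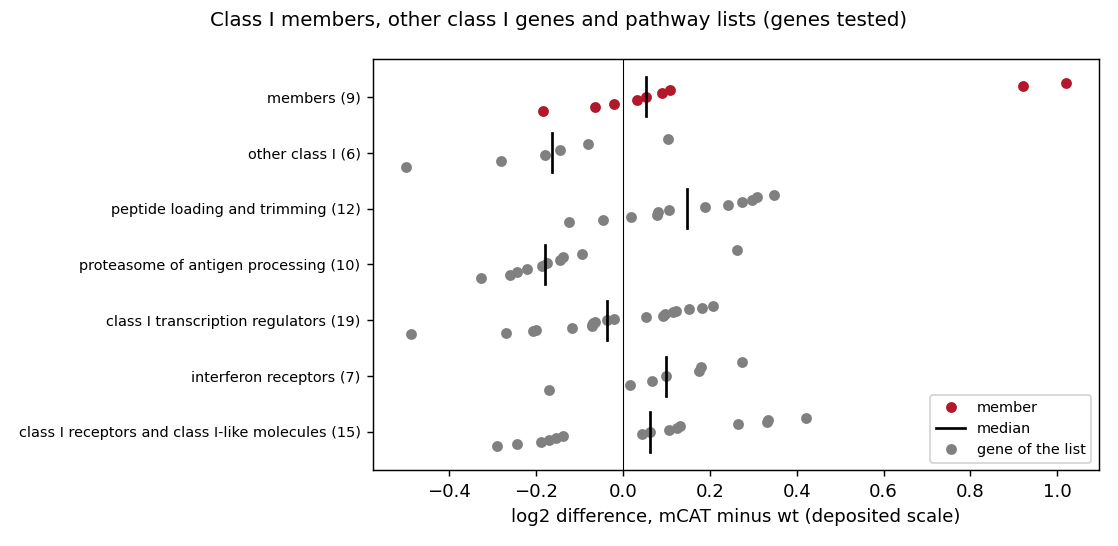
Log2 difference, mCAT minus wt, on the deposited scale (x axis) of the genes tested in each list (y axis, number of genes in brackets); points are genes, red for the members, and black bars medians. H2-Q6 and H2-Q7 lie at 0.92 and 1.02, and the pathway genes between -0.49 and 0.42.

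The library codes fall into the series C2 (6 libraries of 3 stems) and C1 (8 libraries of 5 stems), whose meaning the labels do not give. This contrast did not choose the members, so it was tested, with limma, genotype as a covariate and the stem as a random block. It called 0 of the 9 members, while 2.71% of all genes were called, and 2 of 9 had an unadjusted p under 0.05, against 17.1% of all genes. Those were H2-Q7 and H2-Q6. Among mCAT libraries H2-Q7 averaged 20945 ± 4932 counts in C2 (n = 3) and 25279 ± 1192 in C1 (n = 4); among wt libraries it averaged 9227 ± 1931 in C2 and 13527 ± 2056 in C1. H2-Q6 averaged 12805 ± 2129 in C2 and 18789 ± 3110.5 in C1 among mCAT libraries, and 7259 ± 2691 in C2 and 9555 ± 1314 in C1 among wt libraries. The log2 difference, C2 minus C1, was -0.44 (SE 0.15, limma adjusted p = 0.133) for H2-Q7 and -0.49 (SE 0.17, adjusted p = 0.144) for H2-Q6. Without wt 5 the adjusted p of H2-Q6 was 0.0472, the only one of 14 such fits in which it was called.

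The other members differed less between the code series. B2m stood at 0.31 (SE 0.19, adjusted p = 0.452), with 475448 ± 97648 counts in C2 (n = 6) and 392357 ± 71429.8 in C1 (n = 8). H2-T22 stood at -0.25 (SE 0.14), H2-T23 at -0.21 (SE 0.17), H2-M3 at 0.11 (SE 0.12), H2-Q4 at -0.10 (SE 0.16), H2-D1 at 0.08 (SE 0.16; -0.15 after quantile normalisation) and H2-K1 at -0.03 (SE 0.13). On simulated data for this contrast, 32.8% of genes shifted by 0.5 were recovered and 86.6% of those shifted by 1. Differences of the size of H2-Q6 were thus often missed. The simulated libraries were independent, whereas stem partners in the data correlated (0.463), so recovery in the data may differ. Of the pathway genes 1 of 63 was called, Cd1d1, which encodes the lipid-presenting CD1d, at -1.09 (SE 0.22, adjusted p = 0.0107). Of the 85 genes of the chromosome 17 span that are no members 1 was called, the cytokine gene Tnf, at 2.76 (SE 0.22, adjusted p = 1.91e-06). Both were named after their values were seen.

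The genotype difference of H2-Q7 and H2-Q6 was present in each code series. H2-Q7 differed by 1.17 on the log2 scale within C2 (3 against 3 libraries) and by 0.91 within C1 (4 against 4), and H2-Q6 by 0.86 within C2 and 0.96 within C1. The test of the difference itself, the interaction of genotype and code series, gave 0.23 (SE 0.20) for H2-Q7 and -0.15 (SE 0.23) for H2-Q6. It called 0 of the 9 members and 0 of the 12096 genes (limma, adjusted p = 0.9999 for each member); at an unadjusted p under 0.05 there were 0 members and 339 genes, 2.8% of all. Without the stems C2_2 and C2_4 the genotype difference was 0.98 for H2-Q7 and 0.88 for H2-Q6, and without wt 1 as well it was 1.06 and 0.92.

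Around their own genotype mean, some members varied together. The correlation was taken over 14 libraries that share stems and differ in depth, and is a description. H2-Q6 and H2-Q7 followed each other (Pearson r = 0.882), and H2-Q7 also followed H2-T22 (0.868) and H2-T23 (0.776). H2-D1 followed H2-M3 (0.861), B2m (0.739) and H2-K1 (0.739). H2-K1 was as close to H2-Q6 (0.742) and H2-T23 (0.716) as to H2-D1, and less close to B2m (0.360). B2m did not follow the Q genes (-0.354 with H2-Q7 and -0.163 with H2-Q6). H2-Q6 and H2-Q7, like H2-T22 and H2-T23, share 31-base words with each other. The part of shared sequence in these values was not tested.

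**Figure D5:**
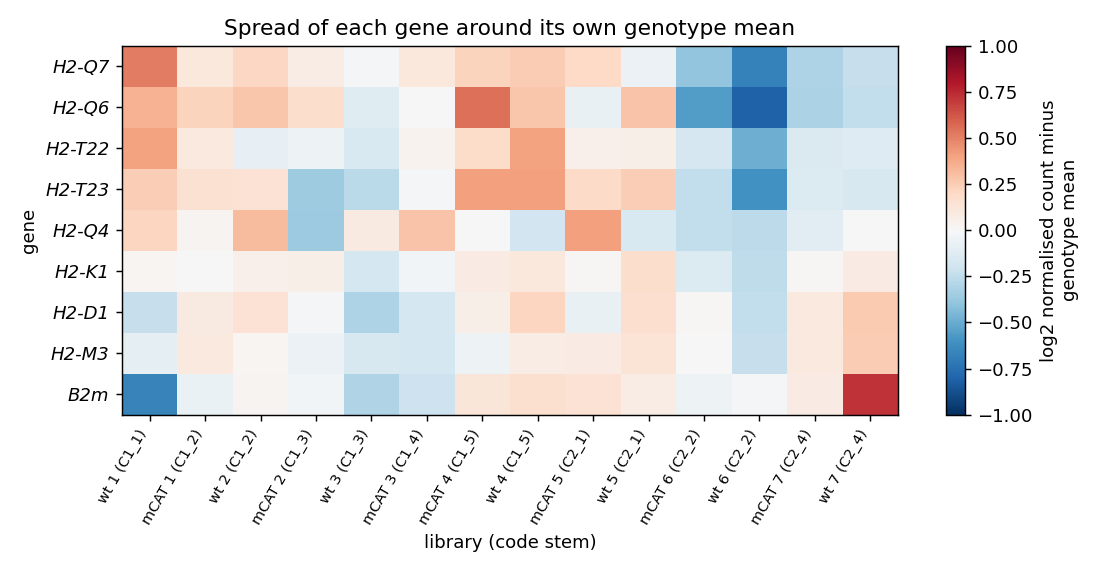
Log2 normalised count minus the mean of the same genotype (colour, -1 to 1) for each gene (rows) in each library (columns, ordered by code stem). H2-Q7, H2-Q6, H2-T22 and H2-T23 are low in wt 6 and mCAT 6 and mostly high in wt 1, mCAT 4 and wt 4, while B2m is low in wt 1 and high in wt 7.

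Of all genes tested, those most like H2-Q7 around the genotype means were Ly6a (r = 0.973), Cldn15 (0.945), Pnp (0.945), Vcan (0.941) and Fndc3a (0.934). Ly6a, which encodes the surface protein Sca-1, had 32576 ± 9756 counts in mCAT and 36795 ± 12758 in wt, and thus shared the spread of H2-Q7 between libraries but not its genotype difference (log2 difference -0.15, adjusted p = 0.944). Pnp, a purine salvage enzyme gene, had 10978 ± 2646 in mCAT and 12108 ± 3515 in wt. Those most like B2m were Commd8 (0.935), Rab14 (0.933), F11r (0.916), Commd10 (0.898) and Fundc1 (0.891). Rab14, a GTPase gene of endosomal traffic, had 8355 ± 633 in mCAT and 8448 ± 1424 in wt. None of these 10 genes was called between the genotypes, without or with pairing.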

How the data were processed

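RNA sequencing libraries (Smart-seq2 from polyadenylated RNA, paired reads of 150 bases, per the labels' protocols) were made from 7 mCAT and 7 wt samples. FastQC, fastp, Salmon and GRCm39 are named in the submitters' processing notes; the sources used here give no versions, annotation or gene filters. The authors' deposited table bears the name of raw counts, yet its values are log2 values in the form of a variance-stabilising transformation: none is a whole number, and all 14 libraries share 1 lowest value. Normalised counts were obtained by undoing that form, with its constant taken from the lowest value. Whole reads were not recovered: 56.7% to 79.3% of the low counts fell within 0.15 of whole multiples of 1 read, where chance gives 30%, so depth is a rough estimate. Without molecular identifiers, amplified reads are no independent molecules, and depth covers counting error only.

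The members, gene lists and tests were chosen with earlier results of these data known. Genes with a normalised count of at least 10 in at least 7 libraries (12096) were tested on the deposited log2 values with limma 3.58.1 in R 4.3.3 (mean-variance trend, robust moderation with statmod 1.5.0), 2-sided, with Benjamini-Hochberg adjustment over all of them and a threshold of 0.05. Genotype was fitted over all 14 libraries without pairing. Library codes give 6 pairs with a shared stem. Deviations from the group means correlated in every such pair, from 0.232 to 0.659. Libraries of different stems also correlated, at 0.158 for mCAT 2 with wt 2 and 0.252 for mCAT 3 with wt 3. These correlations therefore do not settle that stem partners are pairs. The stem, which the labels do not explain, was taken to pair libraries as an assumption. The paired value is given where it changes a call. The code series was fitted with genotype as a covariate and the stem as a random block (correlation 0.463). On simulated data of independent libraries the genotype fit recovered 28.4%, 91.0% and 98.5% of genes shifted by 0.5, 1 and 2, with 10 false calls.

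Named genes were all members, other class I genes tested, called genes or else the 3 with the smallest p of each pathway list, the nearest tested neighbours of H2-Q6 and H2-Q7, and the 5 genes most like H2-Q7 and B2m. Of the listed genes, Hm13 and Gp49a had no row under that symbol, and Lilrb4a had a pair of rows. Shared words, identities (Biopython 1.88 alignments) and motifs were computed from GENCODE M21 transcripts and RefSeq promoters.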

Additional observations from a re-analysis of the deposited data

Results flagged for a closer look

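In 80 groups of 7 libraries (members, other named genes and class I sums, by genotype), a library was looked for whose gap to its nearest neighbour passed the critical value of Dixon's gap test. This was found 8 times, each time for the highest library of its group, and in no group of the 9 members or of the class I sums. For independent groups of normally distributed values about 1 in 20 would be found. The counts were not transformed and the groups share libraries, so that rate is only a rough guide.

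H2-M2, a class I gene of the M region, stood at 1530.3 normalised counts in mCAT 7, where the next mCAT library had 663, and at 4039 in wt 7, where the next wt library had 1032. Both come from the code stem C2_4. H2-T10, the close copy of H2-T22, stood at 748 in mCAT 4, with the next mCAT library at 482. Jak1 stood at 7187 in mCAT 6, with the next mCAT library at 5466, and at 6414 in wt 1, with the next wt library at 4777. The library wt 1 was also far above the other wt libraries for Nfkb1, at 5816 against 2163 for the next, and for Klrd1, at 76.4 against 28.9. Nfyb stood at 868 in wt 4, with the next wt library at 621. No cause of these values was tested.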

How the results depend on the processing

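The log2 difference of H2-Q7 stayed between 0.91 and 1.17, and that of H2-Q6 between 0.79 and 1.01, in every alternative run. Pairing by code stem (replicate block) called 38 genes, 20 of them higher in mCAT, against 24 and 10 without pairing; pairing by title number called 18 genes as higher. C1 alone called 15 genes, 7 of them lower, and C2 alone 9, of which 5 were higher and 4 lower, with fewer libraries in each fit. The code series contrast called 903 genes without the stem as a block, 81 in mCAT libraries alone and 15 in wt libraries alone, against 328. When each library was left out in turn it called 186 (without wt 6) to 507 (without wt 5) genes. It called fewer without mCAT 3 (214), mCAT 6 (196), mCAT 7 (199) and wt 7 (208), and more without wt 1 (498). The number of genes higher in mCAT ran from 7 to 11, and of those lower from 11 to 14.

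Quantile normalisation gave a genotype difference of -0.106 for H2-D1 and -0.0920 for H2-K1, and a C2 minus C1 difference of -0.150 for H2-D1. Signs of differences near 0 also turned. With 1 library left out, the genotype difference reached -0.0488 for H2-T23 and -0.0104 for H2-K1 (without wt 6). It reached 0.0241 for H2-Q4 (without mCAT 2) and -0.00230 for B2m (without wt 1). The C2 minus C1 difference was 0.0269 for H2-Q4 in mCAT libraries alone and 0.00103 for H2-K1 in wt libraries alone, and for H2-K1 it ran from -0.0650 to 0.00752 when 1 library was left out. The genotype difference of H2-T24 was -0.0141 in C1 alone, -0.0264 without the stems C2_2 and C2_4, -0.00438 without wt 1 as well, and -0.00510 to 0.186 when 1 library was left out. That of H2-T27 was 0.0377 in C1 alone and that of Ifngr2 -0.152 in C2 alone. The cause of these turns was not tested. Nfkb1 differed by -0.240 without wt 1. Pairing changed no call of a class I or pathway gene other than that of H2-Q6, which was called with either pairing and, without pairing, after quantile normalisation, with the code series as a covariate, without the stems C2_2 and C2_4 (with or without wt 1) and without mCAT 6. H2-Q6 was picked with this contrast known, so its calls are a description and support nothing. The alternatives that leave out stems, and those of the sums, were chosen after seeing the data. Depth was only estimated, and wt 7, the shallowest library, holds the highest B2m value.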
